A study of Mus musculus with 6 samples.

Results

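The 10 genes Tagln, Cnn1, Myh11, Mylk, Smtn, Lmod1, Cald1, Rgs5, Pdgfrb and Notch3 mark the muscular wall of blood vessels. They were taken by gene symbol from a heart expression series on 6 Illumina bead arrays, in which they are 10 of 19057 named genes and have 22 probes. Of the arrays, 3 hold heart RNA of JMJD2A-transgenic mice: 2 after thoracic aortic constriction (TAC), called transgenic TAC 1 and transgenic TAC 2, and 1 after sham surgery. The other 3 hold heart RNA of wild-type mice: wild-type TAC 1, wild-type TAC 2 and wild-type sham. All mice are of the FvB background and 8 weeks of age by the labels (the series text gives the age in years), and hearts were taken 3 weeks after surgery. The transgene is described as heart specific, and the promoter that drives it was not given in the sources used here. TAC narrows the aorta and so loads the left ventricle with pressure. Neither the labels nor the series text says whether an array holds 1 heart or a pool, so p-values measure only the spread between these samples, which may be technical.

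Vascular smooth muscle contracts when calcium and calmodulin activate myosin light chain kinase, which lets smooth muscle myosin pull on actin filaments that calponin, caldesmon, transgelin, smoothelin and leiomodin bind. Pericytes wrap capillaries and, like smooth muscle, rely on platelet-derived growth factor and Notch signals from the endothelium. Many smooth muscle contractile genes are driven by serum response factor (SRF), which binds the CArG box, with its cofactor myocardin. Several of these genes are also active in embryonic heart muscle, so in whole heart a signal cannot be assigned to vessels by the gene alone. In bulk tissue, fewer cells of a type and less RNA per cell cannot be told apart.

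Values are probe intensities on a linear scale, with array medians between 56.3 and 56.4, and a gene entered the tests when its brightest probe averaged above 58.7. Of the members, 9 were tested; Cnn1, the calponin of smooth muscle, was not, since its only probe stood at 49.9, 51.6 and 50.2 in transgenic TAC 1, transgenic TAC 2 and transgenic sham and at 44.4, 50.2 and 47.7 in wild-type TAC 1, wild-type TAC 2 and wild-type sham. Of smooth muscle markers 6 of 7 and of pericyte markers 7 of 7 lay above this filter. So did 9 of 9 cardiomyocyte markers with a probe, against 1 of 5 mesothelial and 2 of 5 adipocyte markers. The transgenic TAC arrays differed more from each other (SD of the log2 difference over tested genes 0.391) than the wild-type TAC arrays did (0.252). Xist, transcribed in female cells, was low in transgenic sham (42.6) and wild-type TAC 2 (41.7) but ran from 1316 to 2097 elsewhere, and the labels give no sex. The brightest probe of Kdm4a, which encodes JMJD2A, ranged from 87.1 to 108 in transgenic and from 90.8 to 104 in wild-type arrays. A second probe stood at 116, 80.0 and 131 in transgenic TAC 1, transgenic TAC 2 and transgenic sham, against 84.5 to 90.1 in wild-type arrays. The position of these probes relative to the transgene is unknown, so they do not check the labels.

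Transgenic against wild type over both surgeries sets 3 arrays against 3, with surgery as a second factor. All 9 tested members had a log2 difference below 0, with a median of -0.33 and a range from -0.60 to -0.05. Over all 11167 tested genes, 52.4% lay below 0 and the median was -0.01. None of the 9 passed limma with Benjamini-Hochberg adjustment over all tested genes at 0.05, where 0.949% of all genes passed. An unadjusted p under 0.05 was reached by 3 of the 9, Smtn, Tagln and Mylk, against 11.5% of all genes. The 3 transgenic arrays lay wholly below the 3 wild-type arrays for 2 members, Smtn and Tagln, and 8.55% of all genes showed that order.

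Smtn, whose protein smoothelin binds actin filaments in contractile smooth muscle, had the largest difference of the 9. Its brightest probe stood at 1551, 2539.8 and 2340.0 in transgenic TAC 1, transgenic TAC 2 and transgenic sham, against 3360.3, 3104 and 3109 in wild-type TAC 1, wild-type TAC 2 and wild-type sham. The genotypes did not overlap, and transgenic TAC 1 stood well below the other arrays. The fitted difference was -0.60 ± 0.18 on the log2 scale (SE, 3 against 3 arrays), or 1.52-fold lower in transgenic hearts, with an adjusted p of 0.204 and a 95% interval of -1.01 to -0.20. The other Smtn probes differed in the same direction. A probe near the same brightness gave -0.57 ± 0.18, and the dimmer pair gave -0.28 ± 0.14 and -0.12 ± 0.08 when each probe was fitted on its own.

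Tagln encodes transgelin (SM22), an actin-binding protein that is an early marker of smooth muscle. It stood at 71.0, 97.7 and 85.3 in transgenic TAC 1, transgenic TAC 2 and transgenic sham and at 129, 108 and 104 in wild-type TAC 1, wild-type TAC 2 and wild-type sham. The genotypes did not overlap, although the gap between transgenic TAC 2 and wild-type sham was small. The difference was -0.43 ± 0.15 (adjusted p = 0.295) and corresponded to 1.35-fold lower intensity on a dim probe. The second Tagln probe lay below the filter on every array, between 38.0 and 43.9.

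Mylk, the gene of myosin light chain kinase, stood at 1176, 1429 and 1201 in transgenic TAC 1, transgenic TAC 2 and transgenic sham, against 1907, 1624 and 1295 in wild-type TAC 1, wild-type TAC 2 and wild-type sham. The ranges overlapped because wild-type sham lay below transgenic TAC 2. The difference was -0.33 ± 0.14 (adjusted p = 0.428). The dimmer Mylk probes gave -0.38 ± 0.21 and -0.54 ± 0.18, fitted on their own. A further Mylk probe was below the filter.

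Myh11, the smooth muscle myosin heavy chain, stood at 207, 340.0 and 364 in transgenic TAC 1, transgenic TAC 2 and transgenic sham, against 578, 394 and 325 in wild-type TAC 1, wild-type TAC 2 and wild-type sham. The sham arrays were in the opposite order to the TAC arrays, and the difference over both surgeries was -0.51 ± 0.27 (adjusted p = 0.536). Its other probe lay between 39.0 and 44.5.

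Lmod1, a leiomodin that nucleates actin filaments in smooth muscle, was close to the filter, at 54.2 to 69.0 in transgenic and 62.5 to 70.4 in wild-type arrays, with a difference of -0.10 ± 0.11 (adjusted p = 0.785). Cald1 encodes caldesmon, which restrains actin-activated myosin. Its tested probe was at 69.0 to 70.2 in transgenic and 64.2 to 77.2 in wild-type arrays, with a difference of -0.05 ± 0.10 (adjusted p = 0.910). The second Cald1 probe above the filter gave -0.19 ± 0.09 on its own, and the remaining 3 lay between 41.0 and 62.8. For these dim probes background makes up much of the signal, so a change in RNA would be understated.

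Among the pericyte genes, Rgs5, a regulator of G protein signalling abundant in pericytes, stood at 1938, 3912 and 2449.6 in transgenic TAC 1, transgenic TAC 2 and transgenic sham. In wild-type TAC 1, wild-type TAC 2 and wild-type sham it stood at 4371, 2989.5 and 3614. Transgenic TAC 2 lay among the wild-type arrays while the other transgenic arrays lay below all of them, and the difference was -0.45 ± 0.24 (adjusted p = 0.551). Pdgfrb, the receptor through which platelet-derived growth factor recruits pericytes, stood at 213, 429 and 246 in transgenic TAC 1, transgenic TAC 2 and transgenic sham and at 362, 322 and 277 in wild-type TAC 1, wild-type TAC 2 and wild-type sham. Notch3, the Notch receptor of mural cells, stood at 314, 609.7 and 436 in the transgenic arrays in that order, against 527, 584 and 489 in the wild-type arrays. Both receptors were highest in transgenic TAC 2 and lowest in transgenic TAC 1. Their differences of -0.17 ± 0.24 and -0.28 ± 0.23 had adjusted p of 0.848 and 0.706.

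**Figure D1:**
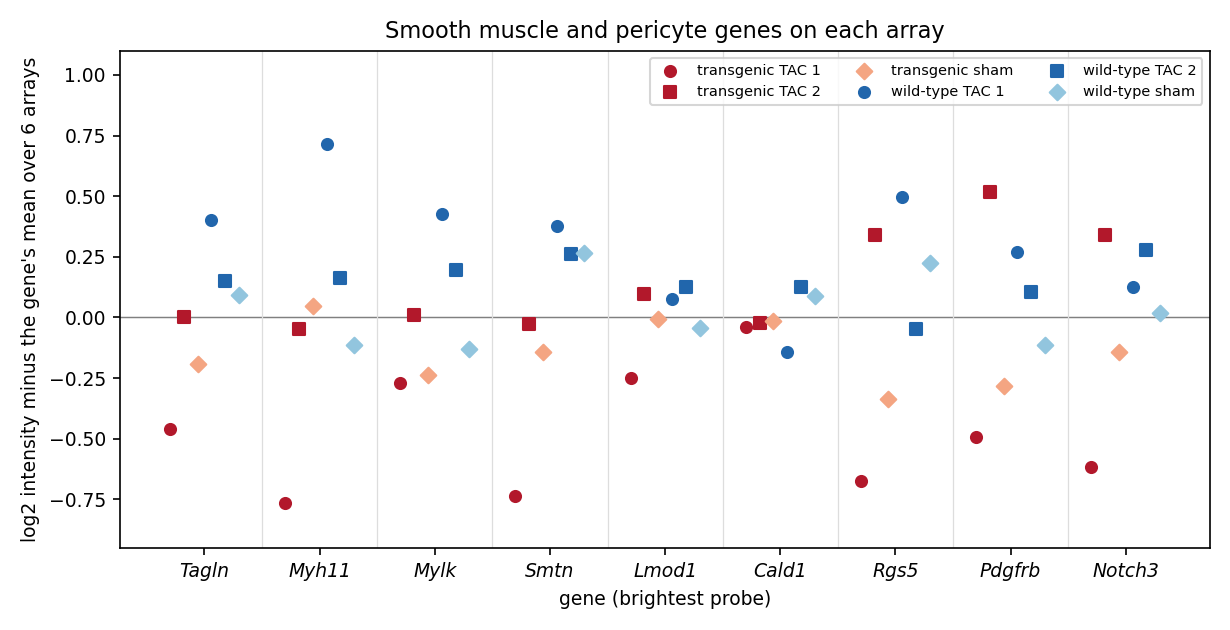
Log2 intensity of the brightest probe of each of the 9 tested genes, minus that gene's mean over the 6 arrays, with 1 point per array (red, transgenic; blue, wild type; dark, TAC; pale, sham). Transgenic TAC 1 is the lowest point for 8 of the 9 genes, and wild-type TAC 1 is the highest for 5.

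Transgenic TAC 1 carried much of this pattern. It was the lowest of the 6 arrays for 8 of the 9 tested members, the exception being Cald1, and 22.8% of all tested genes were lowest there. Wild-type TAC 1 was the highest array for 5 of the 9 members and for 13.2% of all tested genes. Transgenic TAC 1 lay below transgenic TAC 2 for 9 of 9 members and for 58.7% of all genes. For Rgs5, Pdgfrb and Notch3 the transgenic TAC arrays differed from each other by 1.01, 1.01 and 0.96 on the log2 scale, more than any fitted genotype difference of these genes. Without transgenic TAC 1, 6 of the 9 members lay below 0 beside 49.7% of all genes, and the median was -0.18. Lmod1 (0.015), Notch3 (0.0080) and Pdgfrb (0.12) were then above 0. Smtn was at -0.37, Tagln at -0.28, Mylk and Myh11 at -0.22 and -0.21 and Rgs5 at -0.18. Without transgenic TAC 2, 2 members passed, Smtn at -0.78 (adjusted p = 0.0262) and Rgs5 at -0.75 (adjusted p = 0.0407), while 56.0% of all genes lay below 0 and 473 passed in all, against 106 with every array.

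**Figure D2:**
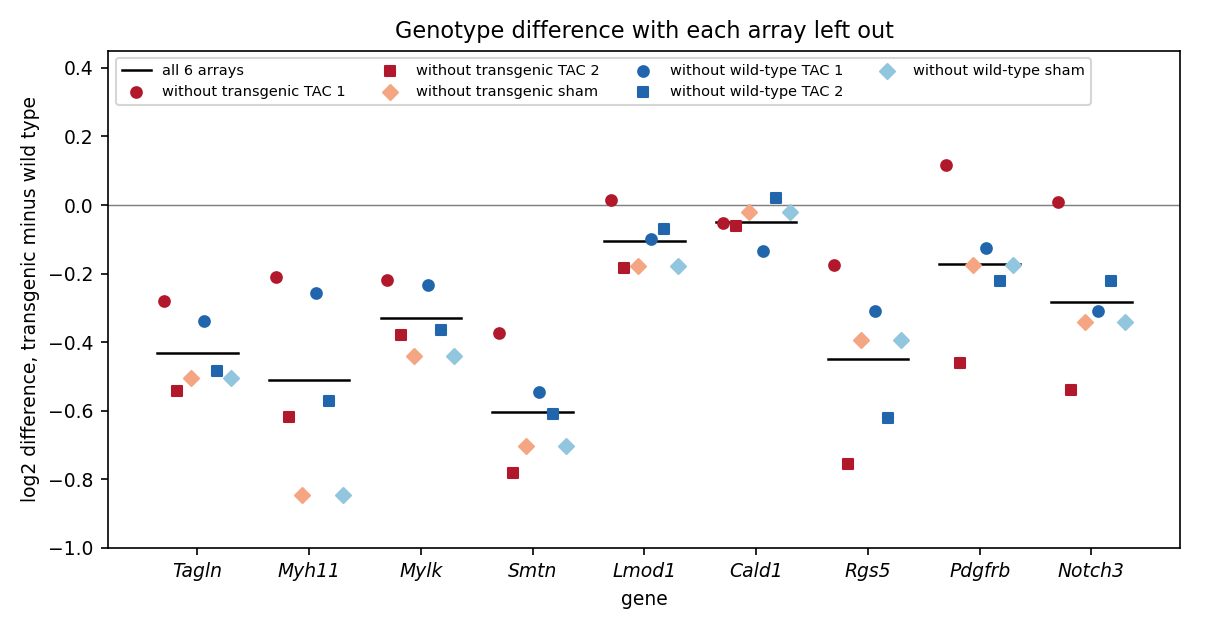
Transgenic minus wild-type log2 intensity over both surgeries for the 9 tested genes, with all 6 arrays (black line) and with each array left out (points). The value without transgenic TAC 1 is the highest point for 8 genes, all but Cald1, and reaches 0.12 for Pdgfrb.

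Markers of other cells did not all follow the members' low array, transgenic TAC 1. The endothelial sum was lowest there and the macrophage sum highest (5369). The fibroblast (23461) and cardiomyocyte (112187) sums of that array lay between those of other arrays. The 10 tested endothelial markers summed to 19361, 27769 and 20819 in transgenic TAC 1, transgenic TAC 2 and transgenic sham, against 23304 to 27139 in wild-type arrays. Of these, 9 had a difference below 0 (median -0.24, 0 passed in limma and 0 at unadjusted p under 0.05), and 5 were lowest in transgenic TAC 1. The 9 cardiomyocyte markers summed to 111288 to 117681 in transgenic and 108379 to 112978 in wild-type arrays, with a median difference of 0.03. Fibroblast markers were above 0 in 9 of 9 (median 0.17, 0 passed, 2 at unadjusted p under 0.05) and summed to 19709 to 26762 in transgenic against 17843 to 25637 in wild-type arrays. Macrophage markers were above 0 in 7 of 7 (median 0.24, 0 passed, 1 at unadjusted p under 0.05), with sums of 4248 to 5369 in transgenic and 3005 to 4254 in wild-type arrays. Of atrial markers, 5 were tested: they summed to 15916 to 24766 in transgenic and 10777 to 29268 in wild-type arrays. Their difference was below 0 for 4 of 5 (median -0.63, 0 passed in limma, 0 at unadjusted p under 0.05), and after TAC for 5 of 5 (median -1.25, 0 passed, 1 unadjusted), both medians farther below 0 than those of the members. Nppa alone made up most of each atrial sum, with 10090 in wild-type sham and 22650 in wild-type TAC 2. Myl7 stood at 545, 120 and 43.3 in wild-type TAC 1, wild-type TAC 2 and wild-type sham, against 45.4 to 142 in transgenic arrays. The adipocyte pair summed to 151 to 267 in transgenic and 137 to 360.2 in wild-type arrays, and the mesothelial gene Upk3b stood at 59.7 to 84.8 in transgenic and 51.1 to 240.3 in wild-type arrays, highest in wild-type TAC 1. The part of these cells in the values above was not tested.

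Among the related lists of contractile genes, light chain control genes and SRF and myocardin family factors, 3 genes passed lower: Acta2, Prkg1 and Hopx. Hopx was listed as a factor that acts on SRF, not as a smooth muscle gene. All 3 calls were lost without both arrays of low Xist, a setting in which 0 of all tested genes passed in limma. Of 19 other tested contractile genes, 1 passed lower and 0 higher, with 13 below 0 and a median of -0.20. Acta2, the smooth muscle actin, fell by 1.67 ± 0.23 on the log2 scale (adjusted p = 0.0118), with 2701, 3495 and 3738 in transgenic TAC 1, transgenic TAC 2 and transgenic sham against 15367, 8986 and 8246 in wild-type TAC 1, wild-type TAC 2 and wild-type sham. On the log2 scale its genotypes stood far apart, by more than the spread within either. By the median over its probes Acta2 did not pass (adjusted p = 0.195). Actg2, the enteric smooth muscle actin, had -1.06 ± 0.22 and an adjusted p of 0.0772, which was 0.0499 without transgenic TAC 2, 0.0332 without transgenic sham, 0.0366 without wild-type sham and 0.0403 with no filter. Its probe was dim, at 61.8 to 77.5 in transgenic and 92.8 to 208 in wild-type arrays. Myl9, the regulatory light chain of smooth muscle myosin that myosin light chain kinase phosphorylates, had -0.85 ± 0.25 (adjusted p = 0.201). Its genotypes overlapped, and its sham arrays were alike (551 in transgenic, 547 in wild type). The difference lay in the TAC arrays, at 333 and 399 in transgenic against 981 and 792 in wild type.

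Of 11 tested genes that control the phosphorylation of that light chain, 1 passed lower and 7 lay below 0 (median -0.11). Prkg1, the cyclic GMP-dependent kinase that relaxes smooth muscle, fell by 0.79 ± 0.14 (adjusted p = 0.0377). It had 469.7, 556 and 420.1 in transgenic TAC 1, transgenic TAC 2 and transgenic sham, against 846, 878 and 755 in wild-type TAC 1, wild-type TAC 2 and wild-type sham. The call was lost without any 1 of 5 arrays, the exception being transgenic TAC 2, with adjusted p from 0.0507 to 0.379, and with Xist as a covariate, at 0.109. By the median over its probes the difference was -0.36 with an adjusted p of 0.263. Ppp1r14a, an inhibitor of myosin phosphatase, had -0.38 ± 0.12 (adjusted p = 0.234).

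Of 7 tested SRF and myocardin family factors, 1 passed lower and 6 lay below 0 (median -0.10). Hopx, a homeodomain protein that restrains SRF, fell by 1.72 ± 0.15 (adjusted p = 0.00134). It had 1787, 1415 and 1899 in transgenic TAC 1, transgenic TAC 2 and transgenic sham, against 4281, 5370.2 and 7457 in wild-type TAC 1, wild-type TAC 2 and wild-type sham. By the median over its probes it did not pass (-0.79, adjusted p = 0.0706). Myocd, which encodes myocardin, had -0.73 ± 0.16 and an adjusted p of 0.0989, with 799.6 to 1077 in transgenic and 1286 to 1831 in wild-type arrays that did not overlap. Without transgenic TAC 2 its adjusted p was 0.0201, and by the median over its probes the difference was -0.36 (adjusted p = 0.261).

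Of 12 other tested pericyte genes, 0 passed (4 at unadjusted p under 0.05) and 9 lay below 0 (median -0.22). Vtn, vitronectin, had -0.73 ± 0.15 (adjusted p = 0.0676), and Abcc9, the sulfonylurea receptor of mural and muscle potassium channels, had -0.61 ± 0.14 (adjusted p = 0.0964). Neither overlapped between genotypes: Vtn stood at 277 to 344 in transgenic and 483 to 511 in wild-type arrays. Both had adjusted p under 0.05 without transgenic TAC 2, Vtn at 0.0129 and Abcc9 at 0.0463, and Abcc9 also without transgenic TAC 1, at 0.0493. By the median over its probes Abcc9 was at -0.09. Of 16 tested ligands, receptors and targets of the platelet-derived growth factor and Notch pathways, 0 passed (3 at unadjusted p under 0.05) and 9 lay below 0 (median -0.08). The growth factor gene Pdgfc had 0.63 ± 0.17 (adjusted p = 0.156), and the receptor gene Pdgfra, a fibroblast marker, had 0.31 ± 0.12 (adjusted p = 0.384). By the median over its probes Pdgfc was at -0.065, and without transgenic TAC 1 it was at 0.82 (adjusted p = 0.0270).

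**Figure D3:**
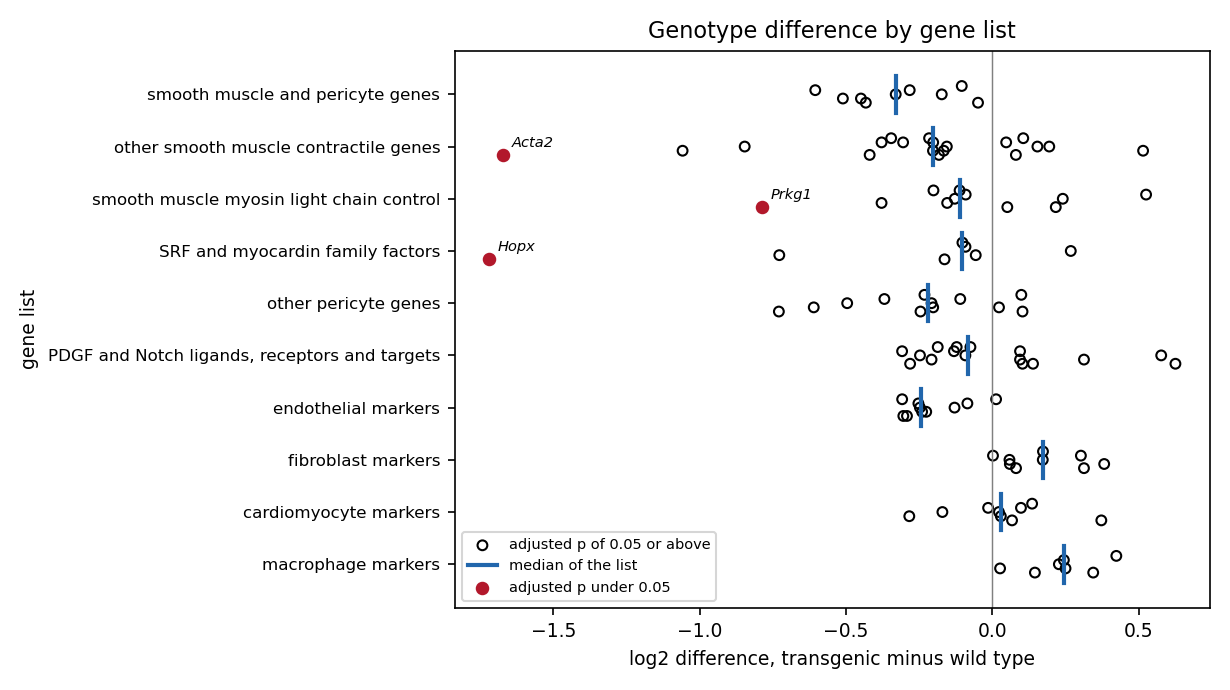
Transgenic minus wild-type log2 intensity over both surgeries for each tested gene of 10 lists, with filled points for adjusted p under 0.05 and a blue bar at each list's median. Acta2, Prkg1 and Hopx pass the test, the median of the smooth muscle and pericyte genes is -0.33, and fibroblast and macrophage markers lie above 0.

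RefSeq promoters (GRCm38.p6, 250 bases before to 50 after the annotated start) were read for the members with the smallest p between genotypes. The windows of Smtn and Mylk are shown because, of the 3 members with the smallest p, they had an entry in the table used; the remaining one is Tagln. Smtn lies at chr11:3539243-3539542 on the minus strand and Mylk at chr16:34784700-34784999 on the plus strand, 5′ to 3′, with the 50 bases after the start in capitals.
Smtn: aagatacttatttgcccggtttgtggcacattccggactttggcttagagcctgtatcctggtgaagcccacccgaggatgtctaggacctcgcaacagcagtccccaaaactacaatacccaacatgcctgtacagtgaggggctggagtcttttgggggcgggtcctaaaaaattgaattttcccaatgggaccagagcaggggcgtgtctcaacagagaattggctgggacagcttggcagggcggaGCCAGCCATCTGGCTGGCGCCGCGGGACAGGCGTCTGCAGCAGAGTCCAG
Mylk: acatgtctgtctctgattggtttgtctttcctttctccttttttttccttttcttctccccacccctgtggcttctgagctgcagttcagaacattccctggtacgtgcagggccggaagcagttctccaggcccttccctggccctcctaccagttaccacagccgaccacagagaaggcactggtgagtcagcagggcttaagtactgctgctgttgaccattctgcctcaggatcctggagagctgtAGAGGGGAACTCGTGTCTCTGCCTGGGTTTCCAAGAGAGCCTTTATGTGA
The CArG box was searched on both strands, only in the strict form CCWWWWWWGG, where W is A or T. It was in 0 of the windows of the 7 members with a promoter and in 1.63% of all 32851 promoter windows. With so low a share, 0 among the 7 says little about the members. The absence says only that this form of the motif is not in these windows, and no factor's binding was measured. Tagln, Myh11 and Pdgfrb had no window and were not searched.

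After TAC alone, the 2 transgenic arrays were set against the 2 wild-type arrays in a fit of the 4 groups. All 9 members again lay below 0 (median -0.39), beside 50.8% of all genes, and this comparison shares its TAC arrays with the one over both surgeries. None of the 9 passed in limma, where 0.206% of all genes did, and 4 had an unadjusted p under 0.05 beside 5.76% of all genes. Transgenic TAC arrays lay wholly below wild-type TAC arrays for 4 members, Tagln, Myh11, Mylk and Smtn, an order shown by 16.8% of all genes. Myh11 had the largest difference, -0.85 ± 0.30 (1.80-fold lower, 2 against 2 arrays, adjusted p = 0.695), followed by Smtn at -0.70 ± 0.23, Tagln at -0.51 ± 0.20 and Mylk at -0.44 ± 0.19. Rgs5 (-0.39 ± 0.32), Notch3 (-0.34 ± 0.31), Lmod1 (-0.18 ± 0.14), Pdgfrb (-0.17 ± 0.32) and Cald1 (-0.02 ± 0.13) had errors near or above their size. Without transgenic TAC 1 the median was -0.015 with 6 of 9 below 0 beside 45.6% of all genes, and Rgs5, Notch3 and Pdgfrb lay above 0, at 0.11, 0.14 and 0.33. Without transgenic TAC 2, transgenic TAC 1 alone was set against the 2 wild-type TAC arrays. All 9 members were then below 0 (median -0.74) beside 56.4% of all genes, with Smtn at -1.06 and Myh11 at -1.20.

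With 1 sham array per genotype, transgenic sham against wild-type sham has no test. Transgenic sham was the lower of the pair for 7 of 9 members, beside 52.8% of all genes. The log2 difference was -0.56 for Rgs5, -0.41 for Smtn and -0.29 for Tagln, while Myh11 was at 0.16 and Lmod1 at 0.04. No member differed by a log2 of 1 or more either way, as 1.04% of all genes did.

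TAC against sham over both genotypes asks what pressure overload changed and sets 4 arrays against 2. None of the 9 members passed in limma, where 0.00895% of all genes did, and 0 had an unadjusted p under 0.05 beside 9.26% of all genes. TAC and sham arrays overlapped for every one of the 9, while 16.5% of all genes did not overlap. The difference was above 0 for 7 of 9 members (48.6% of all genes), with a median of 0.07 and a range from -0.09 to 0.30. Without transgenic TAC 2 only 2 of 9 were above 0, Mylk and Pdgfrb, and the median was -0.03, whereas without transgenic TAC 1, 8 of 9 were above 0 and the median was 0.27. Without wild-type sham 4 of 9 were above 0 (median -0.02), and without transgenic sham 8 of 9 (median 0.18).

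The largest of these differences were those of Pdgfrb, 0.30 ± 0.25 (4 TAC against 2 sham arrays, adjusted p = 0.763), and Mylk, 0.28 ± 0.15 (adjusted p = 0.634). The 95% intervals ran from -0.27 to 0.87 for Pdgfrb and from -0.07 to 0.62 for Mylk. Rgs5 (0.08 ± 0.26), Notch3 (0.09 ± 0.24), Tagln (0.07 ± 0.16), Myh11 (0.05 ± 0.29), Lmod1 (0.04 ± 0.12), Cald1 (-0.06 ± 0.11) and Smtn (-0.09 ± 0.19) stood near 0 with adjusted p from 0.903 to 0.975.

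**Figure D4:**
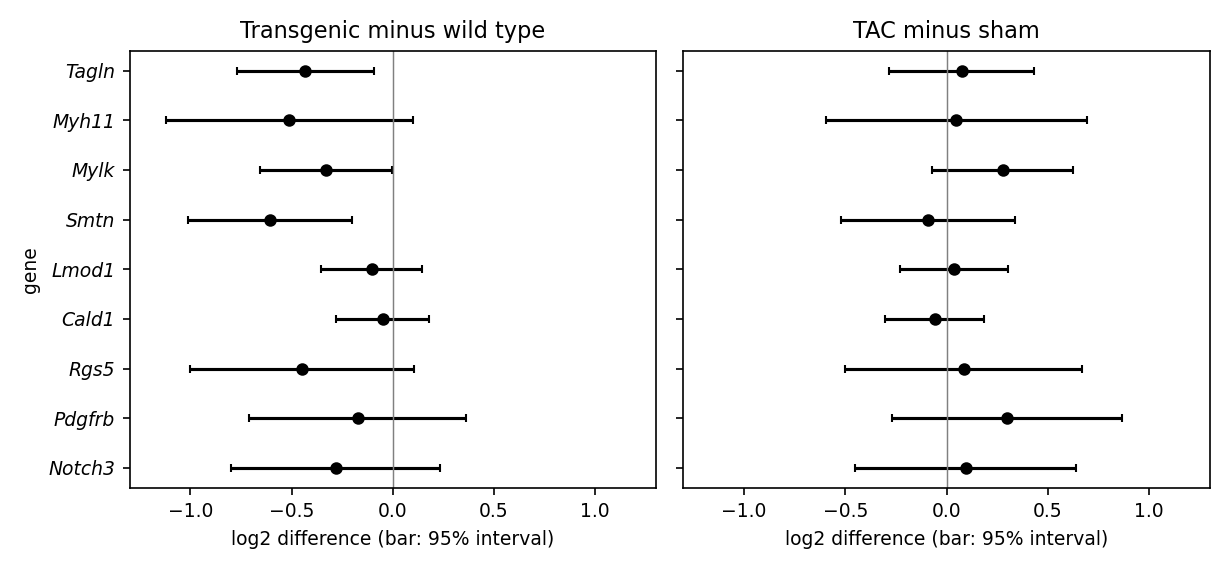
Log2 difference (points) with its 95% interval (bars) from limma for the 9 tested genes, for transgenic minus wild type over both surgeries (left) and TAC minus sham over both genotypes (right). On the left all points lie below 0 and the intervals of Tagln, Mylk and Smtn do not reach 0 before adjustment; on the right every interval includes 0.

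The other lists gave few differences with TAC. Of the other contractile genes 14 of 19 were above 0 (median 0.12, 0 passed in limma, 3 at unadjusted p under 0.05). The genes with the smallest p were the light chain gene Myl6 at 0.46 ± 0.16 (adjusted p = 0.420) and the intermediate filament gene Des at 0.31 ± 0.11 (adjusted p = 0.438), which is also a gene of heart muscle. Of light chain control genes 9 of 11 were above 0 (median 0.08, 0 passed, 0 unadjusted), with Prkg1 at 0.24 ± 0.15 and Ppp1r12a, a myosin phosphatase subunit, at 0.23 ± 0.18. Of SRF and myocardin family factors 5 of 7 were below 0 (median -0.16, 0 passed, 1 unadjusted), with Hopx at -0.45 ± 0.16 (adjusted p = 0.440) and the transcription factor gene Gata6 at -0.23 ± 0.13. Of other pericyte genes 7 of 12 were above 0 (median 0.11, 0 passed, 1 unadjusted). The forkhead gene Foxc1 (0.46 ± 0.15, adjusted p = 0.416) and the proteoglycan gene Cspg4 (NG2, 0.30 ± 0.14, adjusted p = 0.546) each stood higher on all 4 TAC arrays than on either sham array. Of growth factor and Notch pathway genes 9 of 16 were above 0 (median 0.04, 0 passed, 0 unadjusted), with the Notch ligand gene Dll1 at 0.25 ± 0.14 and Pdgfra at 0.22 ± 0.13. Endothelial markers were above 0 in 10 of 10 (median 0.22, 0 passed, 1 unadjusted) and fibroblast markers in 8 of 9 (median 0.26, 0 passed, 3 unadjusted). Macrophage markers were above 0 in 6 of 7 (median 0.16, 0 passed, 0 unadjusted). Atrial cardiomyocyte markers had the largest median of the marker lists, with 5 of 5 above 0 (median 1.38, 0 passed, 1 unadjusted), and within wild type their median was 2.31 (0 passed, 4 unadjusted). The part of these cells in the members' TAC values was not tested.

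Within wild type, 8 of 9 members were above 0 (median 0.18, 47.1% of all genes above 0), and 0 passed in limma, as did 0% of all genes. An unadjusted p under 0.05 was found for 0 of the 9 and 3.56% of all genes. Both TAC arrays lay above the sham array for 6 members, as for 34.4% of all genes. Myh11 was at 0.55 ± 0.37 and Mylk at 0.44 ± 0.23 (2 TAC arrays against 1 sham, adjusted p = 1.00 for both). Within transgenic arrays, 4 of 9 were above 0 (median -0.02, 50.9% of all genes above 0), again with 0 past the test in limma and 0% of all genes, and 0 at an unadjusted p under 0.05 beside 4.86% of all genes. Which TAC array was kept decided this count: without transgenic TAC 1, 7 of 9 were above 0 (median 0.20), and without transgenic TAC 2, 0 of 9 were (median -0.27). Both TAC arrays lay above sham for 0 members (31.1% of all genes) and below it for 2, Myh11 and Cald1 (30% of all genes). Myh11 was at -0.46 ± 0.37 (adjusted p = 0.991) and Mylk at 0.11 ± 0.23 (adjusted p = 0.995). In transgenic arrays a low Xist level coincided with sham, so the 2 cannot be told apart there; in wild-type arrays Xist was low in TAC 2 only.

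The difference of the TAC responses, transgenic minus wild type, was below 0 for 7 of 9 members (median -0.22) beside 47.7% of all genes. This direction rested on transgenic TAC 1: without it 3 of 9 were below 0 and the median was 0.063, against 8 of 9 and -0.47 without transgenic TAC 2. With Xist as a covariate 8 of 9 were below 0 and the median was -0.60. The Xist slope of that fit came mainly from the wild-type TAC arrays (1452 and 41.7), since the transgenic TAC arrays differed less (1316 and 2097). Low Xist coincided with sham in transgenic arrays, so the covariate cannot separate them there. Without the covariate, Myh11 had the largest difference of the responses, -1.01 ± 0.52. It was the only member whose TAC arrays lay wholly on opposite sides of sham in the 2 genotypes. The share of all genes with both orders at once was not counted. Taken singly, 34.4% of all genes lay above sham on both wild-type TAC arrays. On both transgenic TAC arrays, 30% lay below it. No member passed in limma, where 0% of all genes did. An unadjusted p under 0.05 was reached by 0 of the 9 and by 1.64% of all genes.

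For the 3 members that varied most over the 6 arrays, the most similar patterns among 11158 other tested genes were looked up by Pearson's r over the 6 arrays, as a description. Myh11 (SD 0.48 on the log2 scale) was most like Sertad2 (r = 0.984), the replication helicase gene Mcm3 (r = 0.979) and the coactivator gene Zmiz1 (r = 0.978). Rgs5 (SD 0.44) was most like the T-box factor gene Tbx2 (r = 0.997), the corepressor gene Tle2 (r = 0.995) and 4930407I10Rik (r = 0.993). Smtn (SD 0.41) was most like the beta-catenin cofactor gene Bcl9l (r = 0.996), Zfp523 (r = 0.990) and Ccdc61 (r = 0.990). None of these 9 genes is in the lists above, and all 6 points come from the same arrays and normalization. They were picked as the highest of 11158 values of r over 6 points, so a high r is likely from the search alone. Shared regulation was not tested. 4930407I10Rik stood at 54.4 to 65.3, near the filter.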

How the data were processed

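Per the labels' protocols, heart RNA came from a Trizol extraction with a DNase I step and was turned into biotinylated cRNA for Illumina arrays. The deposited values are linear probe intensities from 30.8 to 25873, 1 for each probe on each array. How the authors corrected background and normalized them was not given in the sources used here. After sorting, no array departed from the mean distribution by over 0.0064 (log2), as quantile normalization leaves it, and this scaling was kept. Values below 32 (12 of them) were set to 32 and log2 was taken, with no background subtracted, so folds of dim probes are understated.

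Of 45281 probes, 34885 had 1 gene symbol, 18 several and 10378 none in the platform annotation; symbols were updated by gene identifier (34807 matched) through GRCm38.p6. Each gene was represented by its brightest probe, and those above the 50th percentile of named probes (58.7) were tested. Each gene was fitted in limma 3.58.1 under R 4.3.3 (lmFit, then eBayes with its trend option), and p-values were Benjamini-Hochberg adjusted over 11167 genes. The threshold was 0.05 and errors are SE. An additive model of surgery and genotype (3 residual degrees of freedom) gave the comparisons over all arrays, and a fit of the 4 groups (2 residual degrees of freedom) the others; for a lone sham array the spread of the TAC arrays stood in. The fit of the genotype comparison over both surgeries was tried on simulated data with independent noise and known genotype shifts. The number of arrays limits the precision.

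The members and lists were chosen with earlier results of these data known. All members are named; of each other list, genes past the test (up to 6) and the 2 with the smallest p, with marker lists given by counts. Alternatives were no filter, the 75th percentile, the median over probes, each probe alone, no trend, an offset of the 5th percentile removed, Xist as a covariate, no arrays of low Xist, a replicate block and leaving out each array.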

Additional observations from a re-analysis of the deposited data

Results flagged for a closer look

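Myh11 moved in opposite directions with TAC in the 2 genotypes: both transgenic TAC arrays (207 and 340.0) lay below transgenic sham (364), whereas both wild-type TAC arrays (578 and 394) lay above wild-type sham (325). How many of all genes showed such opposite orders was not counted, so Myh11 is not shown to be unusual in this. The difference of the TAC responses, transgenic minus wild type, was -1.01 ± 0.52 on the log2 scale and did not pass in limma (unadjusted p = 0.0865, adjusted p = 1.00, 2 TAC arrays and 1 sham array per genotype). It ranged from -1.37 without transgenic TAC 2 to -0.65 without transgenic TAC 1. Transgenic sham and wild-type TAC 2 are the arrays of low Xist, and in transgenic arrays low Xist and sham cannot be told apart.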

How the results depend on the processing

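No member passed in any comparison under any planned setting that kept all 6 arrays or left out both arrays of low Xist. Leaving out 1 array, 0 to 2 members passed between genotypes over both surgeries, the 2 without transgenic TAC 2. After TAC, leaving out a TAC array leaves 1 array in its group, so only effect sizes are given there. In the other comparisons the count stayed at 0. Over all genes, those past the test between genotypes numbered 106, and 24 to 473 with 1 array left out; settings with all arrays gave 44 to 125, and leaving out both arrays of low Xist gave 0. Directions of single genes whose values are given above turned as follows, and the cause was not tested. Without both arrays of low Xist, Cald1 was at 0.11 between genotypes over both surgeries and after TAC and Smtn at 0.11 for TAC. With Xist as a covariate, Cald1 was at 0.12 after TAC, Rgs5 at -0.0035 for TAC and Mylk at -0.16 for TAC in transgenic arrays. By the median over probes, Pdgfc was at -0.065 between genotypes, and for TAC Smtn was at 0.066 and Cald1 at 0.10. With 1 array left out, differences between genotypes over both surgeries ranged from -0.18 to 0.015 (Lmod1), -0.13 to 0.019 (Cald1), -0.46 to 0.12 (Pdgfrb) and -0.54 to 0.0080 (Notch3). After TAC they ranged from -0.16 to 0.11 (Cald1), -0.90 to 0.11 (Rgs5), -0.68 to 0.33 (Pdgfrb) and -0.82 to 0.14 (Notch3). For TAC over both genotypes they ranged from -0.035 to 0.19 (Tagln), -0.46 to 0.55 (Myh11), -0.24 to 0.082 (Smtn), -0.070 to 0.15 (Lmod1), -0.11 to 0.0049 (Cald1), -0.14 to 0.29 (Rgs5) and -0.10 to 0.31 (Notch3), and for Mylk in transgenic arrays from -0.030 to 0.25. Some members were given only by count within a genotype. In transgenic arrays, those above 0 with TAC numbered 0 to 7 of 9 with 1 array left out, against 4. They numbered 6 by the median over probes, 3 with the background offset removed and 2 with Xist as a covariate. In wild type they numbered 9 by the median over probes and 7 without wild-type TAC 1, against 8. Leaving out a lone sham array removes its genotype's TAC comparison, and without both arrays of low Xist the TAC comparison in transgenic arrays and the difference of responses could not be fitted. The TAC arrays of both genotypes share the numbers 1 and 2, but same-numbered arrays did not deviate together across genes (r = -0.029), so the numbers only name arrays. With the replicate block 0 members passed in each comparison, 111 genes passed between genotypes over both surgeries and 51 after TAC against 23 without it, and Myocd had an adjusted p of 0.0378. Probes near the array median (Lmod1, Cald1, Tagln) and Cnn1, below the filter, limit what can be seen of those genes. The same holds for Actg2, Ppp1r14a and Pdgfc, whose lowest intensities were 61.8, 66.8 and 57.1.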
